A study of Homo sapiens with 12 samples.

Results

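Interferon-stimulated genes and the genes of antigen presentation by MHC class I were followed in OVCAR8 cells after EC359, trametinib or both agents. The group was a list of 43 human genes taken by name from the 26485 genes of the deposited tables. It was chosen with earlier results of these data known. Every member was listed in the tables. Of the 43 members, 39 had enough counts to be tested, beside 14865 genes tested in all. OAS1, OAS2, IFI44L and XAF1 did not pass the filter on low counts.

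Interferons bind receptors that act through Janus kinases and STAT proteins. STAT2 joins IRF9 in the complex that type I interferon activates, and this complex binds the interferon-stimulated response element (ISRE) of its target genes, while STAT dimers bind the gamma-activated site (GAS). The targets encode RNA sensors, antiviral effectors, the ubiquitin-like modifier ISG15 with its ligases, and the proteins that cut, carry and present peptides on MHC class I molecules. In tumor cells, the same genes govern how the cells respond to viral RNA and how they are seen by T cells.

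OVCAR8 cells, an established line from a human ovarian cancer, received vehicle (control), 150 nM EC359, 100 nM trametinib or both agents at these doses (combination) for 7 h. EC359 is a small molecule that blocks the binding of LIF to its receptor LIFR, and trametinib inhibits the kinase MEK. Each of the 4 groups had 3 libraries of polyadenylated RNA, so that the results describe 1 cell line at 1 time and 1 dose of each agent. No source states that the libraries of a group came from separate cultures, so the p-values measure the spread between libraries, which may be technical.

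The libraries held 24790392 to 32467283 counted reads each, of which the 43 members took 0.128% to 0.141%. Levels are in CPM, which divides counts by the library size after TMM normalization, with the 3 libraries of each group in the order of their replicate numbers. A count of 0 allowed a level of up to 0.0883 to 0.127 CPM, depending on the library, by counting error alone. A gene was called up- or downregulated when it had an adjusted p-value below 0.05 by the quasi-likelihood test of edgeR. The adjustment followed Benjamini-Hochberg over all genes tested, and every adjusted p-value comes from this test unless DESeq2 is named. The epithelial genes KRT7, KRT8 and KRT18 and the Müllerian factor PAX8 were expressed in all 12 libraries (PAX8 at 73.7 to 122 CPM). KRT19 and MUC16 were at or near 0, and CDH1 did not pass the filter (0.0634 to 0.563 CPM). EPCAM was at 9.29 to 13.0 CPM and WT1 at 2.29 to 4.68 CPM. VIM, the highest gene of this marker list, was at 2128 to 3079 CPM. The leukocyte and fibroblast markers PTPRC, CD3E and DCN had no count in any library, although CD68 stood at 47.9 to 60.6 CPM and COL1A1 at 219 to 525 CPM. The class II gene HLA-DRA was at or near 0.

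The promoters of 4 members whose levels are described below are shown with their matches to the ISRE or GAS. Each is the 250 bases before a RefSeq transcription start in GRCh38.p14, written 5′ to 3′ on the strand of the gene. Capitals mark matches to the ISRE letters (GAAA, any 2 bases, GAAA) on either strand, or in IRF1 to the GAS letters TTCNNNGAA.
IRF1, chr5:132490774-132491023, minus strand: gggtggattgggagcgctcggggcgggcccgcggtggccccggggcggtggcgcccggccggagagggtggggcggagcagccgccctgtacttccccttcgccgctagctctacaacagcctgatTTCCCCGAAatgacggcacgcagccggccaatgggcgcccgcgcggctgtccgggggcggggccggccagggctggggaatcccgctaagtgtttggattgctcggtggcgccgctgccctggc
IFIT1, chr10:89392373-89392622, plus strand: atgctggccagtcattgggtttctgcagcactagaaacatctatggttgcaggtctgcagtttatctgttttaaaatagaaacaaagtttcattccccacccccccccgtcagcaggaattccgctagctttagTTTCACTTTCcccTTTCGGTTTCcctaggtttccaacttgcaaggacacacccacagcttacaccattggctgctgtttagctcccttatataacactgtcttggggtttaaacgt
IFIT5, chr10:89414318-89414567, plus strand: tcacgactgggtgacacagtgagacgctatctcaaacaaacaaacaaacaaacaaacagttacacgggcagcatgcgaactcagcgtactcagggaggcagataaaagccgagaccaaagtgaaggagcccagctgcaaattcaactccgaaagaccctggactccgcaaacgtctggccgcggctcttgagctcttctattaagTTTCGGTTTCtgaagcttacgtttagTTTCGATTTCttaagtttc
PARP9, chr3:122564301-122564550, minus strand: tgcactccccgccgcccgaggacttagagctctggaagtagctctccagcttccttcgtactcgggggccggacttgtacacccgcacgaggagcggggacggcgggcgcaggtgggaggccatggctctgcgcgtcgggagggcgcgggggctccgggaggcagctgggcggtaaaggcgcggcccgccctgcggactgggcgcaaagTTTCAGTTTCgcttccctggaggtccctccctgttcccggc
The GAS match of IRF1 began 124 bases before the start. In IFIT1 and IFIT5 the ISRE letters occurred 2 times each, and in PARP9, read from the second of its RefSeq starts, they occurred 41 bases before it. The window at the other RefSeq start of PARP9 had no ISRE match. The set of RefSeq promoters used here held 37 of the 43 members and lacked IRF7, OAS2, OASL, IFIT2, IFITM2 and USP18. Of these, 21 had an ISRE match and 12 a GAS match in this window at any of their RefSeq starts, and 10 had neither. The 10 included DDX58, STAT2, TRIM21, DTX3L, HLA-B and HLA-C, while the 4 promoters shown above all had a match. Counted the same way by gene, 3.71% of the 27305 genes in this set had an ISRE match and 8.09% a GAS match. Counted by start, the shares were 3.02% and 6.56% of its 34943 promoters of the same length. Matches that overlap were counted separately, and a match is a description of letters, not of a binding site in use.

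Compared to control, EC359 upregulated IRF1 and OASL and downregulated IFIT5, IFIT1 and PARP9, while trametinib gave small increases in STAT2, IRF9, OASL, IFIT1 and IFIT3. In the combination, IRF1, OASL and the class I genes HLA-B and HLA-C were upregulated, and IFIT5, TRIM21, PARP9 and IFIT1 were downregulated. The response was therefore split in direction inside the list, also within families.

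With EC359, 13 of the 39 members tested were upregulated and 10 downregulated (33.3% and 25.6%), beside 30.8% and 30.3% of all genes tested, and 61.1% of all genes in either direction. With trametinib, 11 rose and 2 fell (28.2% and 5.13%), beside 13.0% and 15.2% of all genes and 28.2% in either direction. In the combination, 15 rose and 12 fell (38.5% and 30.8%), beside 35.0% and 34.7% of all genes and 69.6% in either direction. The shares for EC359 and the combination were thus near the background, and the share upregulated with trametinib was above it. Since the members were chosen with earlier results of these data known, these shares only describe the list. The median log2 fold change of the 39 members was 0.04 with EC359, 0.15 with trametinib and 0.16 in the combination, beside −0.01, 0.00 and −0.01 over all genes. The comparisons with control share the same control libraries.

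**Figure D1:**
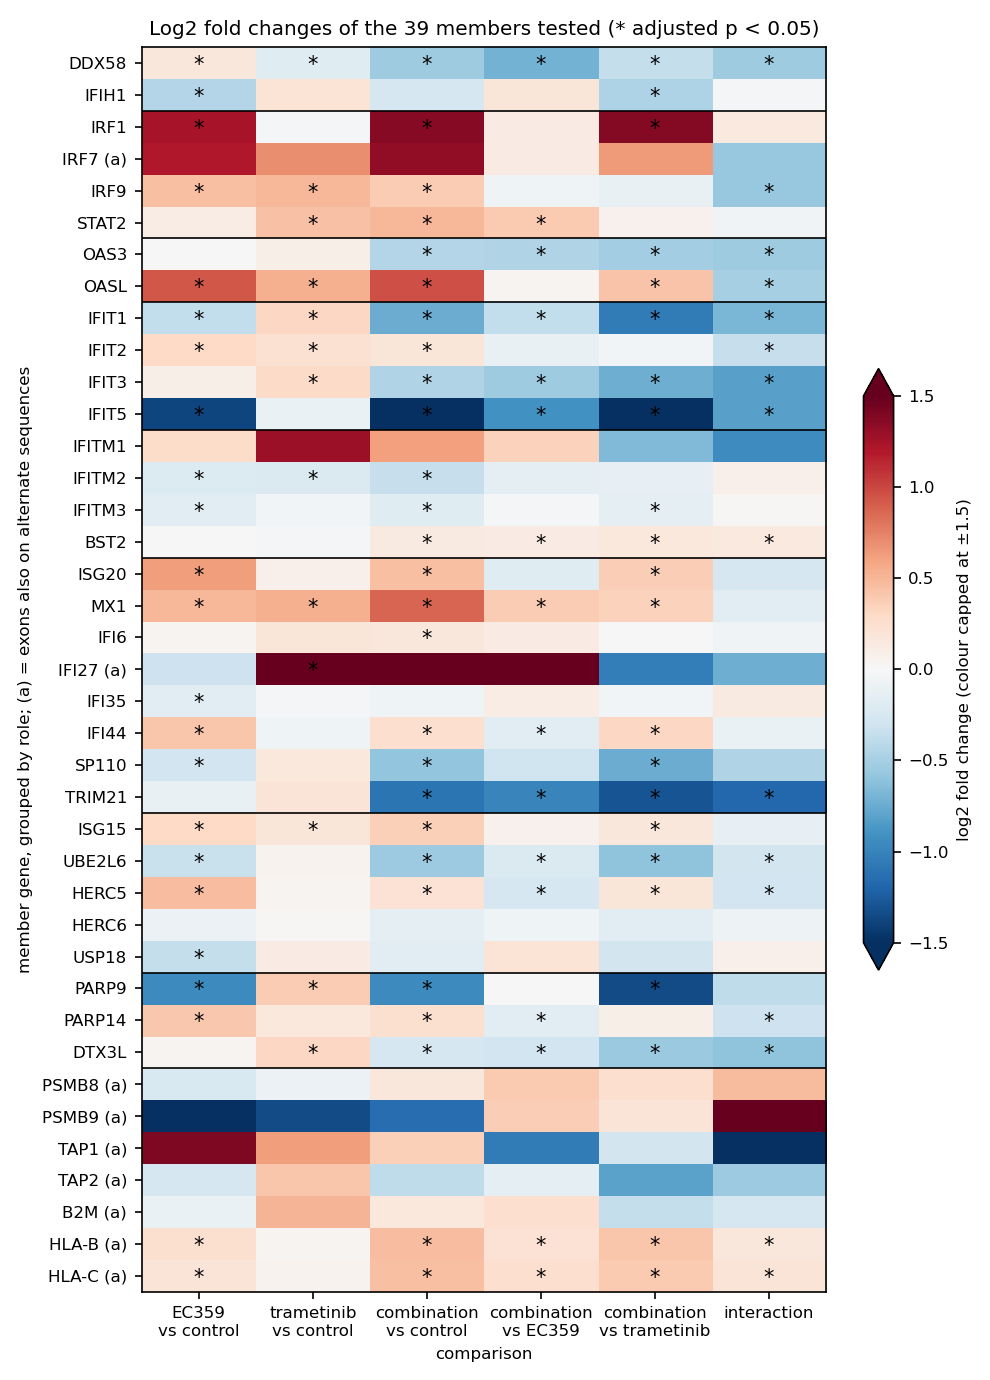
Log2 fold changes of the 39 members tested (rows, grouped by role) in the 6 comparisons (columns), with colour from −1.5 to 1.5 and an asterisk for an adjusted p-value under 0.05. IFIT5, PARP9 and IFIT1 are lower with EC359 and the combination while IRF1 and OASL are higher, and the interaction column is mostly blue, with 13 members called lower and 3 higher.

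Few changes were large. When a 2-fold change was required as well, EC359 upregulated IRF1 and downregulated IFIT5, and no other member passed, beside 4.19% of all genes upward, 2.79% downward and 6.98% in all. Trametinib upregulated IFI27 at this threshold, a call that was lost when any of the 6 libraries was left out, beside 0.478% of all genes upward, 0.955% downward and 1.43% in all. The combination upregulated IRF1 and downregulated IFIT5 and TRIM21, beside 7.27% upward, 5.87% downward and 13.1% in all.

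**Figure D2:**
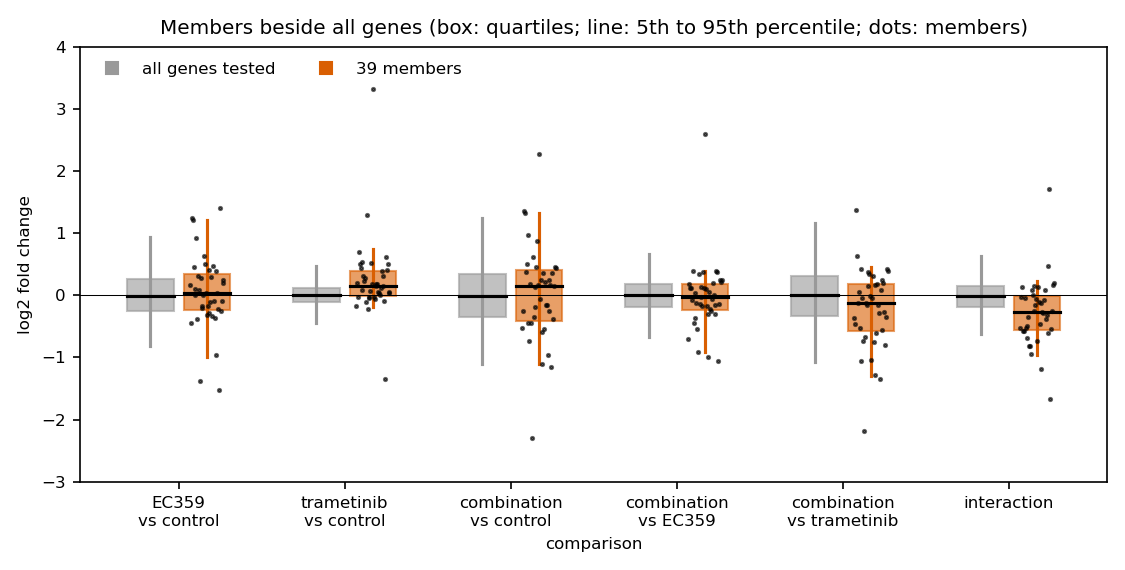
Log2 fold changes of the 39 members (orange box and black dots) and of all 14865 genes tested (grey) in the 6 comparisons, as quartile boxes with the median and a line from the 5th to the 95th percentile. The member medians lie at 0.15 with trametinib and at −0.27 for the interaction, while the medians of all genes lie between −0.01 and 0.00.

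The spread between libraries of a group differed widely among members. The annotation listed exons of 9 members (IRF7, IFI27, PSMB8, PSMB9, TAP1, TAP2, B2M, HLA-B and HLA-C) on alternate sequences of hg38 beside the main chromosomes, and all 7 antigen presentation members were among them. The authors left out reads with a mapping quality under 2 and divided reads with several placements. Among tested genes with a mean of 100 to 300 counts, the median biological coefficient of variation (the spread within groups beyond counting error) was 26.3% for genes with alternate sequences and 11.1% for the others. The part of this placement in the levels of the 9 members was not tested. Without them, 11 of 30 members rose and 10 fell with EC359 (36.7% and 33.3%), beside 30.8% and 30.3% of all genes. With trametinib 10 rose and 2 fell (33.3% and 6.67%), beside 13.0% and 15.2% of all genes. In the combination 13 rose and 12 fell (43.3% and 40.0%), beside 35.0% and 34.7% of all genes. The median log2 fold change of these 30 members in the combination was −0.11, instead of 0.16 with all members tested.

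**Figure D3:**
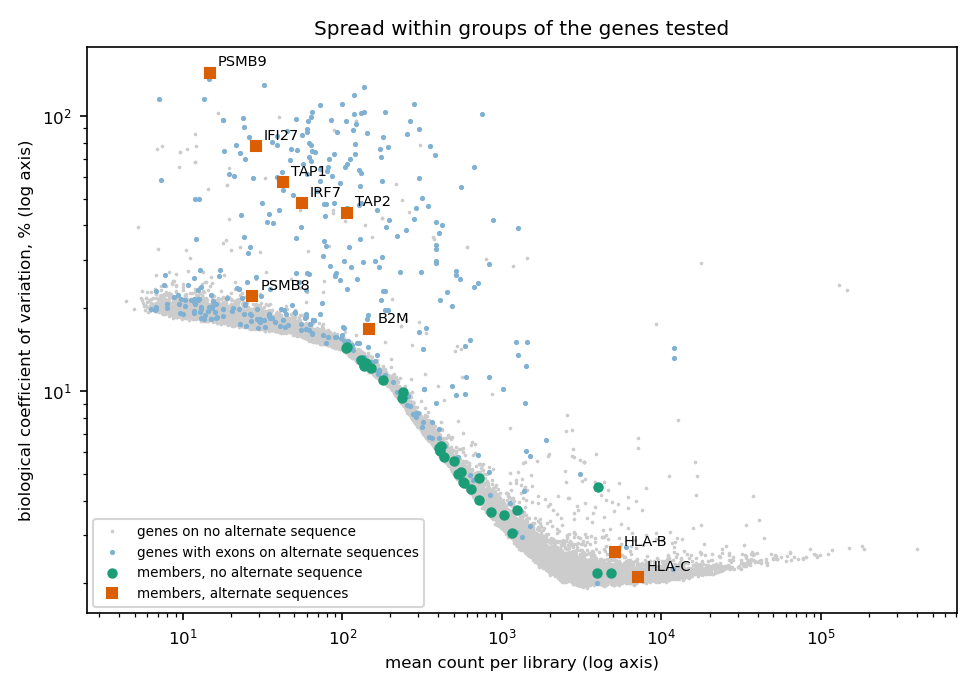
Biological coefficient of variation within groups (%, log axis) against the mean count per library (log axis) for all 14865 genes tested, with members in green where they lie on no alternate sequence and in orange squares where they do. PSMB9, IFI27, TAP1, IRF7 and TAP2 lie above the band of most genes, at 44.5% to 143%, whereas HLA-B and HLA-C lie at 2.59% and 2.11%. IFITM1, which is on no alternate sequence, lies at 45.3%.

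Among the 30 tested members on no alternate sequence, levels per summed exon length (RPKM) in control were highest for IFITM3 at 221, IFITM2 at 219.9 and BST2 at 165. ISG15 followed at 52.8 RPKM and IFI44 at 22.8 RPKM. PARP9, MX1 and ISG20 had the lowest levels of those tested, at 0.777, 0.935 and 0.961 RPKM. The 4 members below the filter were near silent. Over the 12 libraries together, XAF1 had 1 count, OAS1 4, OAS2 13 and IFI44L 40. No library of OAS1 or XAF1 exceeded the limit that a count of 0 allows.

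The cytosolic RNA sensors are DDX58 (RIG-I) and IFIH1 (MDA5), helicases that detect viral RNA and start the induction of interferon. DDX58, on chromosome 9 from 32455302 to 32526324 in hg38, was at 18.6, 19.3 and 18.9 CPM in control, 20.0, 21.7 and 22.2 CPM with EC359, 15.7, 17.8 and 16.9 CPM with trametinib, and 14.7, 11.7 and 13.0 CPM with the combination. The combination libraries were the lowest and the EC359 libraries the highest, and no pair of groups overlapped. In the combination DDX58 fell by 1.45-fold compared to control (log2 fold change -0.53, standard error 0.07, adjusted p = 3.08e-09). Its small changes with EC359 (0.17) and trametinib (-0.18) had adjusted p-values of 0.0255 and 0.0484. Both lost the call in DESeq2 (adjusted p of 0.0611 and 0.132) and when single libraries were left out, where the adjusted p reached 0.107 and 0.265. IFIH1 had a log2 fold change of -0.44 with EC359 (adjusted p = 0.0135), which did not pass without control replicate 2 (adjusted p = 0.0949).

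Of the transcription factors, IRF1, which binds interferon response elements and is itself induced by interferon-gamma, changed the most. IRF1, on chromosome 5 from 132481609 to 132490773, was at 12.5, 14.1 and 13.9 CPM in control, 31.0, 31.2 and 33.7 CPM with EC359, 13.4, 13.5 and 13.2 CPM with trametinib, and 35.7, 33.2 and 35.4 CPM with the combination. All EC359 and combination libraries lay above all control and trametinib libraries. EC359 upregulated IRF1 by 2.36-fold (log2 fold change 1.24, standard error 0.06, adjusted p = 1.76e-25) and the combination by 2.57-fold (1.36, 0.06, adjusted p = 1.01e-27). Trametinib left it at a log2 fold change of -0.02 (standard error 0.07, adjusted p = 0.876). The combination differed from EC359 alone by 0.12 (standard error 0.06, adjusted p = 0.0653), which did not pass.

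STAT2 followed trametinib instead. Its levels were 26.6, 25.4 and 23.5 CPM in control, 27.7, 27.1 and 26.6 CPM with EC359, 34.5, 34.4 and 33.4 CPM with trametinib, and 35.5, 35.6 and 35.5 CPM with the combination. The trametinib and combination libraries lay above those of control and EC359 without overlap. Trametinib upregulated STAT2 by 1.36-fold (adjusted p = 3.57e-10) and the combination by 1.41-fold (adjusted p = 1.12e-12), whereas with EC359 the log2 fold change was 0.11 (adjusted p = 0.0725). IRF9, the DNA-binding partner of STAT2, rose with every treatment, by 0.45 with EC359, 0.50 with trametinib and 0.38 in the combination on the log2 scale. The effects of the 2 agents on IRF9 did not add up, since the interaction, the combination's log2 effect minus the sum of the single-agent effects, was -0.57 (standard error 0.09, adjusted p = 5.06e-07). IRF7, which drives the induction of type I interferon, was scattered within groups, at 1.64, 1.20 and 0.471 CPM in control, 1.94, 2.85 and 2.72 CPM with EC359, 0.967, 3.49 and 0.941 CPM with trametinib, and 2.99, 3.32 and 1.92 CPM with the combination. Its log2 fold changes of 1.21 with EC359 and 1.33 with the combination had adjusted p-values of 0.119 and 0.0791.

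The OAS proteins sense double-stranded RNA, and OASL is a related protein without the synthetase activity. OASL, on chromosome 12 from 121020292 to 121039242, was at 9.85, 8.59 and 9.74 CPM in control, 18.3, 18.0 and 17.3 CPM with EC359, 13.8, 13.8 and 13.3 CPM with trametinib, and 19.7, 18.5 and 16.9 CPM with the combination. Control was lowest and trametinib intermediate, and EC359 and the combination overlapped at the top. EC359 upregulated OASL by 1.90-fold (log2 fold change 0.93, standard error 0.08, adjusted p = 2.95e-16), trametinib by 1.45-fold (adjusted p = 7.14e-08) and the combination by 1.95-fold (adjusted p = 3.60e-17). The difference between the combination and EC359 alone was 0.04 (standard error 0.07, adjusted p = 0.699). OAS3, the active synthetase that passed the filter, was at 6.64 ± 0.366 CPM in control and in the combination at 4.89 ± 0.484 CPM (SD, n = 3 each), a decrease of 1.36-fold (adjusted p = 6.25e-04). With EC359 and trametinib alone its log2 fold changes were 0.01 and 0.08 (adjusted p of 0.97 and 0.644).

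The 4 IFIT genes, which encode proteins that bind foreign RNA and lie side by side on chromosome 10, did not move as a block. IFIT5, on chromosome 10 from 89414568 to 89421002, showed the largest decrease of all members in the combination. It was at 12.8, 12.4 and 12.7 CPM in control, 4.44, 5.34 and 4.73 CPM with EC359, 11.9, 11.9 and 11.5 CPM with trametinib, and 3.15, 2.31 and 2.29 CPM with the combination. The order from control and trametinib down to EC359 and then to the combination had no overlap. EC359 downregulated IFIT5 by 2.60-fold (log2 fold change -1.38, standard error 0.10, adjusted p = 2.37e-17) and the combination by 4.89-fold (-2.29, 0.11, adjusted p = 2.01e-25). In bulk RNA, a lower level in every cell and a smaller number of cells that express a gene cannot be told apart. Trametinib alone left IFIT5 at a log2 fold change of -0.10 (adjusted p = 0.485).

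IFIT1 moved in opposite directions with the single agents. Its levels were 27.9, 27.0 and 28.4 CPM in control, 20.6, 21.3 and 22.3 CPM with EC359, 34.4, 33.9 and 35.1 CPM with trametinib, and 17.4, 16.8 and 15.7 CPM with the combination. No groups overlapped, and the order was trametinib, control, EC359 and combination. Compared to control, IFIT1 rose by 1.24-fold with trametinib (adjusted p = 2.90e-06) and fell by 1.30-fold with EC359 (adjusted p = 5.67e-08) and by 1.67-fold in the combination (adjusted p = 4.44e-17). IFIT3 was at 23.7, 24.2 and 27.4 CPM in control, 29.1, 25.5 and 25.6 CPM with EC359, 30.4, 30.9 and 30.6 CPM with trametinib, and 19.3, 19.8 and 16.3 CPM with the combination. The combination libraries were the lowest and the trametinib libraries the highest, while those of control and EC359 overlapped. IFIT3 rose by 1.22-fold with trametinib (adjusted p = 2.99e-04), was at a log2 fold change of 0.09 with EC359 (adjusted p = 0.24), and fell by 1.36-fold in the combination (adjusted p = 8.58e-08). IFIT2, in contrast, was higher than control with all treatments, by 0.30, 0.23 and 0.19 on the log2 scale for EC359, trametinib and the combination. Without control replicate 3, its calls with trametinib and the combination were lost (adjusted p of 0.0669 and 0.115), and with scaling by total counts alone the call in the combination was also lost (adjusted p = 0.518).

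**Figure D4:**
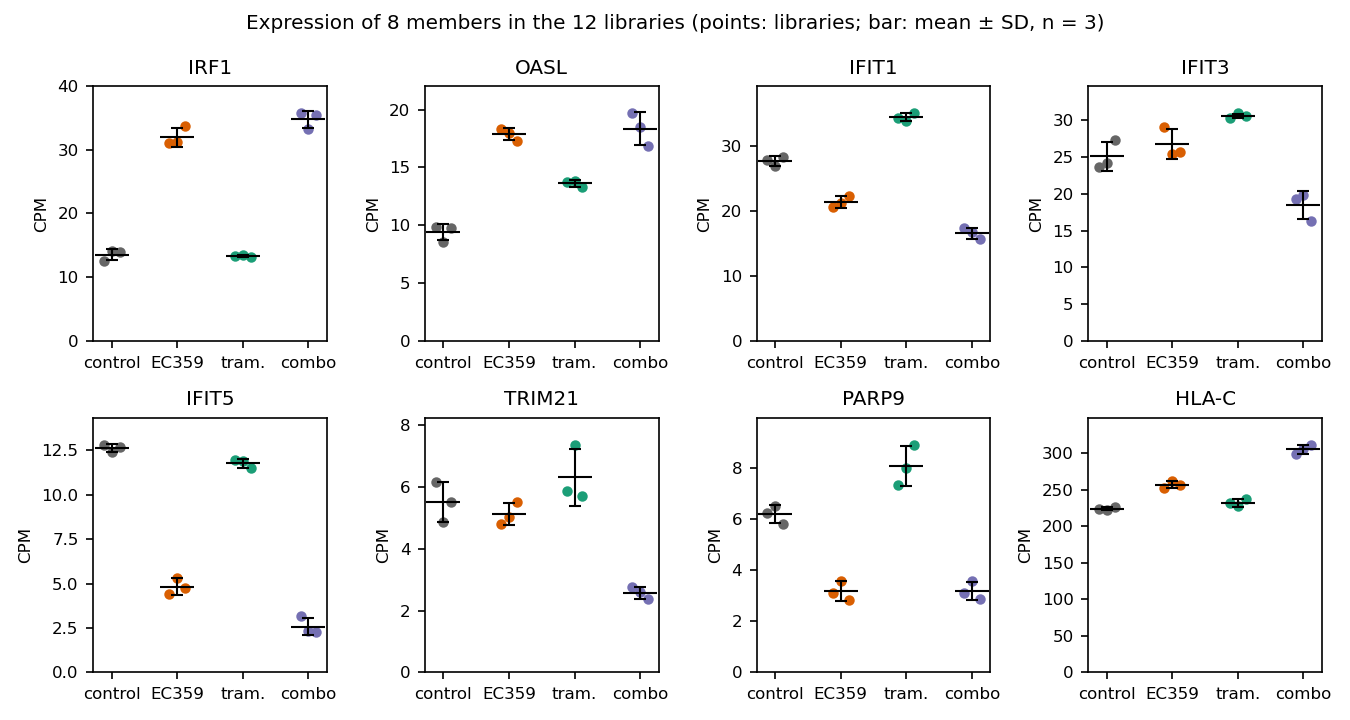
CPM of 8 members in the 12 libraries (points), with the mean ± SD of the 3 libraries per group (bars) and axes that start at 0. IRF1 and OASL are raised with EC359 and the combination, IFIT5 and PARP9 are lowered with both, TRIM21 is lowered in the combination, from 4.88 to 6.17 CPM in control to 2.37 to 2.75 CPM, and HLA-C steps up from control through EC359 to the combination.

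The IFITM proteins and BST2 (tetherin) act at membranes, where they hinder virus entry and the release of virus particles. IFITM2 was at 166, 158 and 157 CPM in control, 154, 135 and 130.0 CPM with EC359, 133, 141 and 139.9 CPM with trametinib, and 123, 130.4 and 126 CPM with the combination. All treated libraries lay below those of control, and the largest decrease, in the combination, was 1.27-fold. The log2 fold changes were -0.20 with EC359, -0.22 with trametinib and -0.34 in the combination (adjusted p of 0.00771, 0.0108 and 1.84e-04), and the call with EC359 was lost when only the groups compared were fitted (adjusted p = 0.0541). IFITM3 fell with EC359 (-0.16) and the combination (-0.19) and was at -0.04 with trametinib (adjusted p = 0.395). BST2 was at 169, 171 and 164 CPM in control, 165, 170.0 and 169 CPM with EC359, 168, 159 and 168 CPM with trametinib, and 179, 188 and 184 CPM with the combination. Its combination libraries were the highest, by a log2 fold change of 0.13 from control (adjusted p = 4.33e-05), but with scaling by total counts this value turned to −0.01.

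IFITM1 varied more than its count would lead to, with a biological coefficient of variation of 45.3%. It was at 2.57, 2.22 and 2.41 CPM in control, 3.29, 2.35 and 3.11 CPM with EC359, 7.21, 2.73 and 7.52 CPM with trametinib, and 1.92, 7.08 and 2.03 CPM with the combination. A single trametinib library lay near control and a single combination library lay far above the other two of its group. No comparison of IFITM1 passed (adjusted p of 0.131 with trametinib and 0.367 with the combination). IFITM2 and IFITM3 had coefficients of 4.48% and 2.18%. The IFITM genes are similar in sequence, and whether reads were divided between them was not tested.

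Among the other effectors, TRIM21, a cytosolic antibody receptor and ubiquitin ligase, was downregulated in the combination. TRIM21, on chromosome 11 from 4384897 to 4393696, was at 6.17, 4.88 and 5.53 CPM in control, 4.82, 5.03 and 5.52 CPM with EC359, 5.87, 7.37 and 5.71 CPM with trametinib, and 2.75, 2.61 and 2.37 CPM with the combination. Every combination library lay below every other library, and control overlapped with both single agents. In the combination TRIM21 fell by 2.14-fold compared to control (log2 fold change -1.10, standard error 0.14, adjusted p = 5.20e-10), while its log2 fold changes were -0.11 with EC359 (adjusted p = 0.489) and 0.19 with trametinib (adjusted p = 0.295).

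IFI44, an antiviral protein and the most abundant gene of this sub-group by CPM, was at 38.5, 40.7 and 38.6 CPM in control, 53.9, 54.2 and 49.1 CPM with EC359, 40.5, 34.2 and 37.7 CPM with trametinib, and 49.9, 45.3 and 45.0 CPM with the combination. EC359 and combination libraries lay above those of control, and the trametinib libraries overlapped with control. IFI44 rose by 1.33-fold with EC359 (adjusted p = 2.76e-09) and 1.19-fold in the combination (adjusted p = 4.52e-05), the latter at an adjusted p of 0.0504 with scaling by total counts. MX1, a dynamin-like GTPase that blocks viruses, rose with all treatments, from 3.42 ± 0.329 CPM in control to 4.84 ± 0.347 with EC359, 4.94 ± 0.241 with trametinib and 6.28 ± 0.640 CPM in the combination (SD, n = 3 each). Its adjusted p-values were 9.63e-04, 0.00125 and 3.87e-08.

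IFI27, a mitochondrial protein strongly induced by type I interferon, was at 0.250, 0.222 and 0.235 CPM in control, 0, 0.302 and 0.236 CPM with EC359, 2.75, 2.28 and 2.14 CPM with trametinib, and 0.239, 2.83 and 0.376 CPM with the combination. The trametinib libraries and 1 combination library stood near 2 to 3 CPM, and the other libraries were below 0.4 CPM. The log2 fold change with trametinib was 3.32 (standard error 0.92, adjusted p = 0.0271), and the call was lost whichever of the 6 libraries was left out (adjusted p from 0.0532 to 0.0848). IFI27 is among the genes with an alternate sequence, and the part of this in its values was not tested. ISG20 rose with EC359 (0.63) and the combination (0.45), and SP110 fell in the combination (-0.59, adjusted p = 6.99e-05). The calls of SP110 (-0.29) and IFI35 (-0.17) with EC359 and of IFI6 with the combination (0.17) were lost in DESeq2 (adjusted p of 0.109, 0.112 and 0.101).

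ISG15 is attached to proteins by UBE2L6 and HERC5 and removed by USP18. ISG15, on chromosome 1 from 1013467 to 1014539, was at 35.0, 36.6 and 33.9 CPM in control, 44.3, 43.8 and 41.4 CPM with EC359, 40.2, 39.3 and 40.4 CPM with trametinib, and 43.9, 44.5 and 46.4 CPM with the combination. Each treatment lay above control, and the EC359 and combination libraries overlapped. ISG15 rose by 1.23-fold with EC359 (adjusted p = 1.20e-07), 1.14-fold with trametinib (adjusted p = 0.00107) and 1.28-fold in the combination (adjusted p = 7.62e-10). Its conjugating enzyme UBE2L6 moved the other way, with log2 fold changes of -0.33 with EC359 (adjusted p = 5.20e-06) and -0.54 in the combination (adjusted p = 2.90e-11). The ligase HERC5 rose with EC359 (0.47, adjusted p = 3.96e-12) and the combination (0.22, adjusted p = 1.54e-04), the latter not with scaling by total counts (adjusted p = 0.161). HERC6 passed in no comparison. The USP18 call with EC359 (-0.36, adjusted p = 0.0407) was lost in DESeq2 (adjusted p = 0.0979).

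PARP9 and DTX3L form a ubiquitin ligase complex, and their genes lie head to head on opposite strands of chromosome 3, with PARP14 close by. PARP9, on chromosome 3 from 122527911 to 122564676, was at 6.25, 6.53 and 5.83 CPM in control, 3.13, 3.59 and 2.84 CPM with EC359, 7.36, 8.01 and 8.92 CPM with trametinib, and 3.11, 3.58 and 2.89 CPM with the combination. The EC359 and combination libraries overlapped and lay below control, and the trametinib libraries lay above it. PARP9 fell by 1.94-fold with EC359 (log2 fold change -0.96, standard error 0.13, adjusted p = 5.85e-09) and by 1.94-fold in the combination (adjusted p = 4.14e-09). Its increase of 1.31-fold with trametinib (adjusted p = 0.0112) was lost without control replicate 3 or trametinib replicate 3 (adjusted p from 0.0643 to 0.0945).

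The partner DTX3L, on chromosome 3 from 122564338 to 122575202, was at 14.2, 12.6 and 15.5 CPM in control, 14.7, 14.1 and 14.9 CPM with EC359, 17.8, 18.0 and 16.7 CPM with trametinib, and 11.1, 12.8 and 11.6 CPM with the combination. Its trametinib libraries were the highest, and those of control overlapped with EC359 and with the combination. DTX3L had a log2 fold change of 0.04 with EC359 (standard error 0.08, adjusted p = 0.667), and it rose by 1.24-fold with trametinib (adjusted p = 8.25e-04). The decrease in the combination (-0.25, adjusted p = 0.00349) was lost without control replicate 3 (adjusted p = 0.066). PARP14, a mono-ADP-ribosyltransferase, was at 15.5, 16.6 and 16.4 CPM in control, 21.1, 22.7 and 20.3 CPM with EC359, 18.7, 17.5 and 18.0 CPM with trametinib, and 19.9, 18.3 and 19.3 CPM with the combination. It rose with EC359 by 1.32-fold (adjusted p = 2.45e-07) and in the combination by 1.18-fold (adjusted p = 7.94e-04), the latter not with scaling by total counts (adjusted p = 0.145). In the trametinib group it had a log2 fold change of 0.15 (adjusted p = 0.0636).

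In antigen presentation, the heavy chain genes HLA-B and HLA-C were upregulated by EC359 and further in the combination, and the 5 other members passed in no comparison. HLA-C, on chromosome 6 from 31268749 to 31272136, was at 224, 222 and 226 CPM in control, 252, 261 and 256 CPM with EC359, 231, 227 and 237 CPM with trametinib, and 299, 306 and 311 CPM with the combination. The groups stood apart in the order control, trametinib, EC359 and combination. HLA-C rose by 1.15-fold with EC359 (log2 fold change 0.20, standard error 0.03, adjusted p = 1.14e-09) and by 1.36-fold in the combination (0.45, 0.03, adjusted p = 4.47e-23), and was at 0.05 with trametinib (adjusted p = 0.127). HLA-B went from 159 ± 5.32 CPM in control to 189 ± 9.47 CPM with EC359 and, in the combination, 219 ± 3.86 CPM (SD, n = 3 each), with adjusted p-values of 2.60e-08 and 1.43e-15. HLA genes differ between people and resemble each other, and reads were divided among placements, so that their separate levels are uncertain.

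PSMB9, a subunit of the immunoproteasome, and TAP1, a subunit of the peptide transporter, were too scattered to compare. PSMB9 was at 0.0714, 0.158 and 2.38 CPM in control, 0.253, 0.604 and 0.0394 CPM with EC359, 0.780, 0.114 and 0.130 CPM with trametinib, and 0.0399, 0 and 1.16 CPM with the combination. TAP1 was at 0.964, 1.11 and 0.765 CPM in control, 0.845, 1.41 and 5.28 CPM with EC359, 0.874, 0.873 and 2.59 CPM with trametinib, and 0.998, 1.71 and 0.902 CPM with the combination. In 3 groups of PSMB9 and 2 groups of TAP1, a single library stood far above the rest of its group. PSMB9 had a log2 fold change of -1.52 with EC359 and TAP1 of 1.40, with standard errors of 1.57 and 0.74 and adjusted p-values of 0.44 and 0.135. B2M, the light chain of all class I molecules, had only 3.59 to 8.58 CPM in the 12 libraries, and none of its comparisons passed (adjusted p of 0.707, 0.0676 and 0.51 for EC359, trametinib and the combination). The annotation held B2M on an alternate sequence as well, and the part of this in its low level was not tested.

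The combination was next compared with each single agent. Compared to EC359 alone, 5 of the 39 members were higher and 11 lower (12.8% and 28.2%), beside 24.1% and 25.2% of all genes and 49.2% in either direction, and none reached 2-fold, beside 1.69% of all genes upward, 1.55% downward and 3.24% in all. TRIM21 (-0.99), IFIT5 (-0.91), DDX58 (-0.70) and IFIT3 (-0.53) had the largest decreases among those that passed. STAT2 (0.39), MX1 (0.38), HLA-C (0.25), HLA-B (0.21) and BST2 (0.13) were the members that were higher. The MX1 call was lost without EC359 replicate 2 (adjusted p = 0.0573) or combination replicate 2 (adjusted p = 0.07), and that of PARP14 (-0.16) in DESeq2 (adjusted p = 0.0792).

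Compared to trametinib alone, 10 members were higher and 12 lower (25.6% and 30.8%), beside 35.3% and 32.9% of all genes and 68.2% in either direction. By 2-fold or more, IRF1 was higher, and IFIT5, PARP9, TRIM21 and IFIT1 were lower, beside 6.12% of all genes upward, 5.48% downward and 11.6% in all. IFIT5 fell by 4.56-fold (adjusted p = 2.41e-24), PARP9 by 2.53-fold (adjusted p = 1.15e-13), TRIM21 by 2.44-fold (adjusted p = 4.36e-12) and IFIT1 by 2.08-fold (adjusted p = 1.21e-23). The counts in this comparison moved with the scaling, to 5 higher and 20 lower with total counts, beside 10580 of 14865 genes called in either direction. The median of the 39 members was −0.12, and over all genes 0.00.

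The interaction was below 0 for most members that passed. It was lower than the sum of the single-agent effects in 13 of 39 members and higher in 3 (33.3% and 7.69%), beside 15.9% and 14.4% of all genes and 30.3% in either direction. The median was −0.27 in the members and −0.01 over all genes. These values, too, only describe a list that was chosen with earlier results of these data known. All 4 IFIT genes were below the sum, IFIT3 by -0.82 (standard error 0.09, adjusted p = 1.02e-09), IFIT5 by -0.81, IFIT1 by -0.68 and IFIT2 by -0.35. TRIM21 had the largest interaction of those that passed, -1.18 (standard error 0.19, adjusted p = 1.65e-06), and was the member past 2-fold, beside 0.881% of all genes upward, 0.686% downward and 1.57% in all. Both tested OAS members, OAS3 (-0.53) and OASL (-0.50), also had a negative interaction, although OASL rose with every treatment. The members above the sum were HLA-C (0.20), HLA-B (0.17) and BST2 (0.15). Without the members on alternate sequences, 1 of 30 members was higher and 13 were lower (3.33% and 43.3%).

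**Figure D5:**
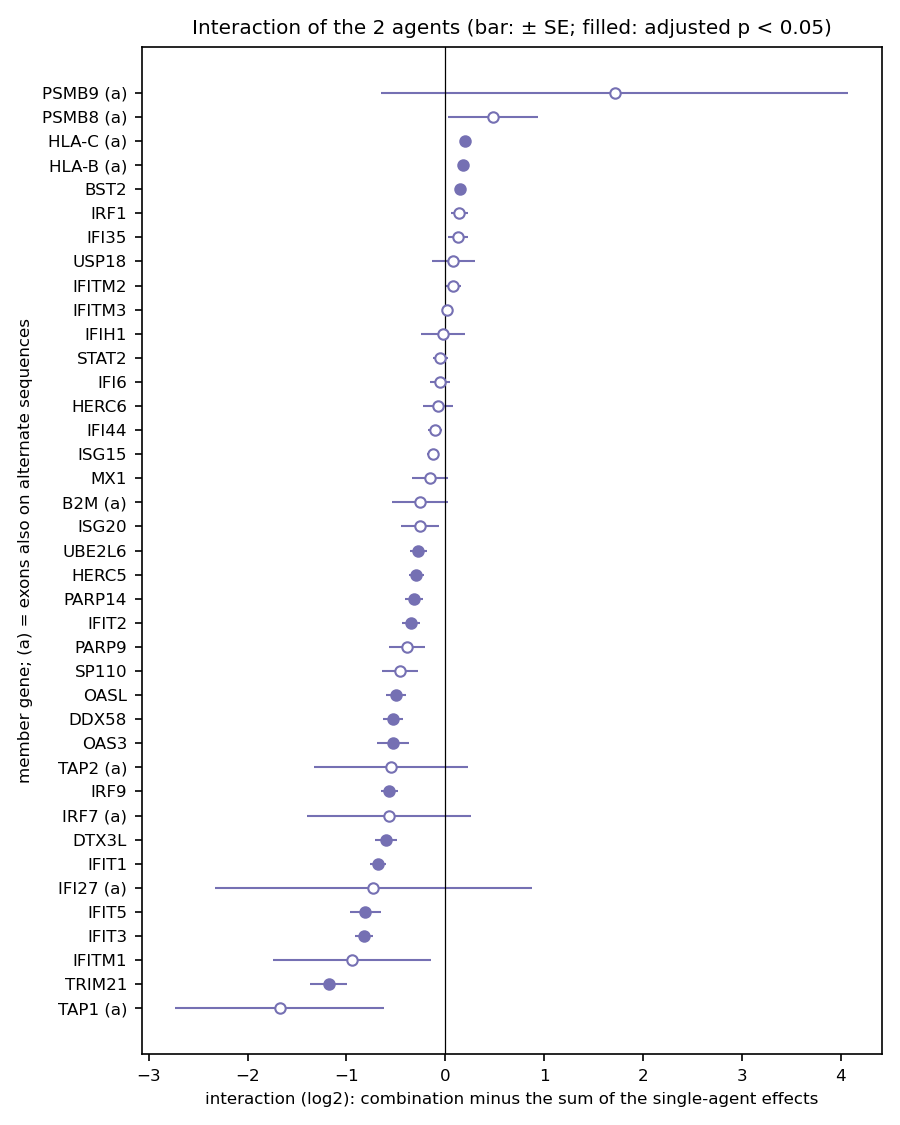
Interaction (combination minus the sum of the single-agent log2 effects) of the 39 members tested, ordered by value, with the standard error as bar and filled points for an adjusted p-value under 0.05. The 13 filled points left of 0 reach from −1.18 (TRIM21) to −0.27 (UBE2L6), and those right of 0 are BST2, HLA-B and HLA-C at 0.15 to 0.20.

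Of 85 other genes of the interferon and class I pathways that were listed by role, 66 were tested. With EC359, 20 were upregulated and 21 downregulated (30.3% and 31.8%), with trametinib 13 and 13 (19.7% each), and in the combination 23 and 28 (34.8% and 42.4%), beside the shares of all genes given above. None of the 8 interferon genes listed was tested. IFNB1 had 1 count over the 12 libraries, IFNE 12 and IFNK 10, and the others, among them IFNG, had none. The 8 receptor and kinase genes all passed the filter, with 3 higher and 2 lower both with EC359 and in the combination. The shares of all genes were 30.8% and 30.3% with EC359, and 35.0% and 34.7% in the combination. With trametinib, 3 of these 8 genes were higher and 0 lower, beside 13.0% and 15.2% of all genes.

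Of 8 negative regulators, 6 rose and 1 fell with EC359 (beside 30.8% and 30.3% of all genes), none rose and 2 fell with trametinib (beside 13.0% and 15.2%), and 4 rose and 1 fell in the combination (beside 35.0% and 34.7%). These counts and those of the groups that follow are descriptions. SOCS3, a feedback inhibitor of cytokine receptors, was at 19.1, 20.2 and 21.1 CPM in control, 61.8, 61.5 and 59.7 CPM with EC359, 13.8, 14.4 and 15.9 CPM with trametinib, and 50.6, 48.5 and 48.4 CPM with the combination. It rose by 3.03-fold with EC359 (adjusted p = 1.29e-34) and 2.44-fold in the combination (adjusted p = 5.99e-30), and fell with trametinib alone (log2 fold change -0.45, adjusted p = 5.76e-09). SOCS1, which inhibits Janus kinases, had 0.999, 0.761 and 0.647 CPM in control, 1.35, 1.98 and 1.97 CPM with EC359 and 2.19, 2.38 and 2.70 CPM in the combination, log2 fold changes of 1.15 and 1.60 (adjusted p of 4.35e-05 and 2.80e-08).

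Of 10 tested genes of sensing and interferon induction, 4 rose and 3 fell with EC359, near the shares of all genes (30.8% and 30.3%), 1 rose and 4 fell with trametinib (13.0% and 15.2% of all genes), and 2 rose and 7 fell in the combination (35.0% and 34.7%). TICAM1 (TRIF), the adaptor of TLR3, rose from 26.9, 28.8 and 29.1 CPM in control to 81.7, 78.4 and 78.8 CPM with EC359 and 65.4, 62.2 and 64.5 CPM in the combination, by 2.81-fold and 2.26-fold (adjusted p of 1.12e-36 and 1.83e-31). MB21D1 (cGAS), the sensor of cytosolic DNA, was at 83.1, 79.6 and 83.9 CPM in control, 183, 186 and 183 CPM with EC359, 75.6, 73.3 and 70.4 CPM with trametinib, and 144, 136 and 142 CPM with the combination. Its log2 fold changes were 1.16 with EC359 (adjusted p = 3.18e-38) and 0.78 in the combination (adjusted p = 1.53e-29). No groups overlapped, with EC359 the highest and trametinib the lowest. TLR3, a receptor for double-stranded RNA, was low, at 0.50, 0.602 and 0.177 CPM in control and 0.127, 0.235 and 0.0394 CPM with EC359. Its log2 fold change of -1.57 with EC359 (adjusted p = 0.0155) did not pass in 3 of the fits without a single library (adjusted p up to 0.116), and in the combination it was -2.00 (adjusted p = 0.00334).

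Among 22 tested further interferon-stimulated genes, 3 rose and 11 fell with EC359, 8 rose and 7 fell with trametinib, and 4 rose and 15 fell in the combination. The shares of all genes that rose and fell were 30.8% and 30.3% with EC359, 13.0% and 15.2% with trametinib, and 35.0% and 34.7% in the combination. ZC3HAV1 (ZAP), which binds CpG-rich viral RNA, was at 108, 105 and 111 CPM in control, 273, 267 and 259 CPM with EC359, 117, 122 and 116 CPM with trametinib, and 366, 383 and 397 CPM with the combination. It rose by 2.46-fold with EC359 (adjusted p = 5.49e-39) and 3.54-fold in the combination (adjusted p = 4.35e-46). GBP3, a guanylate-binding protein, and SAMD9L, a translation inhibitor, were lower with EC359 alone and lower still in the combination. Mean levels of GBP3 were 15.4 CPM in control, 10.9 CPM with EC359 and 5.97 CPM in the combination. Those of SAMD9L were 3.56, 1.93 and 1.23 CPM in the same order. For both genes, every EC359 library lay below all control libraries and above all combination libraries. GBP3 and SAMD9L had log2 fold changes of -1.37 and -1.54 in the combination (adjusted p of 1.04e-18 and 1.15e-10).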

How the data were processed

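RNA of 12 OVCAR8 libraries was sequenced by the authors. The deposited values are estimated counts (expected counts) per gene. Per the file headers, the authors counted read pairs over exons by strand with featureCounts 1.5.0-p1 and hg38 gene models. Reads of mapping quality below 2 were left out, and those placed several times were divided. The submitters' processing notes also name bcl2fastq and HISAT2. Values were rounded, since 12.4% to 15.1% of genes in a library were not whole.

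Genes were filtered with filterByExpr of edgeR 4.0.16 in R 4.3.3 (minimum count 10, minimum total 15), scaled by TMM, and fitted with the robust quasi-likelihood model over all 12 libraries. The 6 comparisons used Benjamini-Hochberg adjustment over 14865 genes, with calls at an adjusted p-value under 0.05 and, as a second rule, at least a 2-fold change. Means are given ± SD and log2 fold changes with standard errors. RPKM used the gene lengths in the files.

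The members and gene lists were chosen with earlier results of these data known. Libraries are listed for members past 2-fold in any comparison, the most abundant member of each of 9 sub-groups, the 3 largest log2 fold changes each way against control, and the 5 largest interactions past the threshold, 21 members in all. Of 11 pathway genes past 2-fold against control, the 8 with the largest changes are named.

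Alternatives were DESeq2 1.42.0, its size factors in edgeR, total counts only, no filter, 10 or more counts in each library, fits of the compared groups alone, a block for the replicate number, glmTreat of edgeR against 1.5-fold, the 2-fold rule, values without rounding, and each library left out. Leaving out members on alternate sequences was added after seeing the data. The test was checked on simulated counts with the same spread for every gene and changes only in genes with higher counts. This check does not cover members with few counts or a wide spread. Promoters came from RefSeq (GRCh38.p14). Cell assays, blots and animal experiments were not analysed here, and a gene of the pathway lists is not reported.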

Additional observations from a re-analysis of the deposited data

Results flagged for a closer look

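In 16 of the 39 members tested (41.0%), the effect of an agent differed with the presence of the other, beside 30.3% of all genes. The same held for 5 of the 8 other pathway genes described above, which were picked for their large changes. These calls used the interaction term of edgeR's quasi-likelihood test (adjusted p under 0.05 with Benjamini-Hochberg adjustment). The value given is the combination's log2 effect minus the sum of both single-agent effects, over 3 libraries per group.

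Of the sensors and transcription factors, DDX58 had an interaction of -0.53 and IRF9 of -0.57. In the OAS family it was -0.53 for OAS3 and -0.50 for OASL. The IFIT genes had -0.68 (IFIT1), -0.35 (IFIT2), -0.82 (IFIT3) and -0.81 (IFIT5). For TRIM21 it was -1.18. The enzymes of ISG15 conjugation had -0.27 (UBE2L6) and -0.29 (HERC5), and the call of UBE2L6 was lost without trametinib replicate 3 (adjusted p = 0.0508). PARP14 and DTX3L had -0.31 and -0.60.

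Positive interactions were seen for BST2 at 0.15, HLA-B at 0.17 and HLA-C at 0.20. Among the 8 pathway genes described above, SAMD9L had -0.66, GBP3 -0.64, TICAM1 -0.38, MB21D1 -0.22 and ZC3HAV1 0.39. Over all 66 pathway genes tested, 8 had an interaction above 0 that passed and 18 one below 0 (12.1% and 27.3%), beside 14.4% and 15.9% of all genes. The SAMD9L call was lost in 9 of the 12 fits without a single library (adjusted p from 0.0529 to 0.17). No cause of these differences was tested.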

How the results depend on the processing

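Counts of members are given as higher and lower. Against 1.5-fold (glmTreat) they were 2 and 2 with EC359, 0 and 0 with trametinib, 3 and 4 in the combination, 0 and 2 for the combination against EC359, 1 and 5 against trametinib, and 0 and 1 for the interaction. In the same order, glmTreat called 1384, 199, 2779, 474, 2317 and 99 of all 14865 genes in either direction. With the 2-fold rule the member counts were 1 and 1, 1 and 0, 1 and 2, 0 and 0, 1 and 4, and 0 and 1. The shares of all genes were then 6.98%, 1.43%, 13.1%, 3.24%, 11.6% and 1.57% in either direction. Total counts moved the median log2 fold change of all genes to −0.15 with EC359, −0.14 in the combination and −0.16 for the combination against trametinib, and gave 9 members higher in the combination and 5 higher and 20 lower against trametinib. With this scaling, 10649 of 14865 genes were called in the combination and 10580 against trametinib, in either direction. The log2 fold changes of BST2 then turned to −0.13 with EC359, −0.00713 in the combination and −0.00887 against trametinib. The 2 members lower with trametinib became 1 with DESeq2, with its size factors, with total counts and with the replicate block. Without members on alternate sequences, 3 of 30 were higher against EC359 and 1 in the interaction (10% and 3.33%), beside 24.1% and 14.4% of all genes.

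Leaving out 1 library gave 12 to 13 higher and 7 to 9 lower with EC359, 8 to 10 and 1 to 2 with trametinib, and 14 to 16 and 11 to 13 in the combination. The ranges were 4 to 6 and 10 to 12 for the combination against EC359, 8 to 10 and 11 to 16 against trametinib, and 3 to 4 and 12 to 15 for the interaction. Over all genes, these fits called 8497 to 8592 with EC359, 3476 to 3772 with trametinib and 9924 to 9989 in the combination. They called 6658 to 6846 for the combination against EC359, 9644 to 9797 against trametinib and 3969 to 4432 for the interaction. Each fit tested 15017 to 15078 genes. Of 1974 values of single genes in these fits, 67 lost their call and 26 gained one. Among values with a call in the main fit or the fit without a library, 0 changed sign. Sign changes of values without a call were not counted.

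The replicate numbers did not pair the libraries, since deviations of same-numbered libraries correlated at −0.08 to 0.05 in 18 pairs, and 1 of 12 libraries was closest to its own number. With the number as a block, 280 of 282 single-gene values kept their call, and DDX58 with trametinib and SP110 with EC359 lost it. The calls of members with few counts are limited by depth, and those of PSMB9, TAP1 and IFITM1 by their spread within groups.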

Other observations

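The remaining genes of class I presentation, which include peptide-trimming enzymes, chaperones and the regulators of class I transcription, had 15 tested genes. With EC359 1 rose and 4 fell, beside 30.8% and 30.3% of all genes. In the combination 7 rose and 3 fell, beside 35.0% and 34.7% of all genes, with a median log2 fold change of 0.07 and none past 2-fold. The 3 constitutive proteasome subunits that the immunoproteasome replaces, PSMB5, PSMB6 and PSMB7, all rose with EC359 and in the combination, beside 30.8% and 35.0% of all genes. Their median log2 fold changes were only 0.10 and 0.11. Scaling by total counts moved the median of all genes to −0.15 with EC359 and −0.14 in the combination. These 3 genes were not followed under that scaling.

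Members were also set side by side by the letters of their promoters. Of 20 tested members with an ISRE match, 8 rose and 6 fell in the combination (median log2 fold change 0.16), and of 14 tested members with a promoter entry and no match, 5 rose and 5 fell (median −0.11), beside 35.0% and 34.7% of all genes (median −0.01). For the interaction, 1 was higher and 6 were lower with a match (median −0.30), and 2 were higher and 5 lower without one (median −0.06), beside 14.4% and 15.9% of all genes. These are descriptions, and the difference between the groups was not tested.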
